A study of Mus musculus with 12 samples.

Results

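Extracellular adenosine is made and sensed in the mouse by the products of a small set of genes, and the 7 described here are Entpd1, Nt5e, Adora2a, Ada, Adk, Dpp4 and Slc29a1. They were chosen by name as the enzymes, receptor, transporter and surface protein of adenosine production, sensing and removal, not by a threshold on a measured value. The choice was made with earlier results of these data known. All 7 were found among the 24062 genes of the count table, and all 7 passed the filter on low counts that left 13509 genes for testing. RNA of CD4+ T cells of C57BL/6 mice was sequenced in 12 libraries, 2 in each of 6 groups. Regulatory T cells (Treg) were the GFP-positive and conventional T cells (Tconv) the GFP-negative CD4+ cells, sorted after negative selection of CD4+ T cells. Each cell type came from 3 sources: tumours of tumour-bearing (TB) mice, their spleens, and spleens of normal mice. TB mice had received 500000 TC-1 cells, a transformed mouse epithelial line of lung origin, into the tail vein, and tissues were taken 3 weeks later. Normal mice had no tumour, and no treatment of them is given. The promoter that drives GFP and the age of the mice are not given in the sources used here. The labels do not say whether the 2 libraries of a group came from different mice, so that each p-value measures the spread between these libraries only. No T cells from the tumour-bearing organ of mice without a tumour were among the samples, so that the effect of the tumour and that of the organ cannot be told apart in the comparisons of tumour with spleen.

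ATP released by stressed or dying cells is degraded at the cell surface in a pair of steps. The ectonucleotidase CD39, the product of Entpd1, removes phosphates from ATP and ADP to leave AMP, and CD73, the product of Nt5e, converts AMP to adenosine. Adenosine acts on the receptor encoded by Adora2a, which raises cAMP in T cells and dampens their activation. It is taken up through the equilibrative nucleoside transporter ENT1 (Slc29a1) and removed by adenosine deaminase (Ada), which makes inosine, or by adenosine kinase (Adk), which makes AMP. Dpp4 encodes CD26, a serine protease of the T cell surface that is known in human cells to anchor adenosine deaminase. Mouse Treg are known for carrying both CD39 and CD73.

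Libraries held 18624132 to 24111546 counts. Levels are given as CPM, the counts of a gene scaled to a common library size with TMM factors, and differences as log2 fold changes with their standard error (SE) and an adjusted p-value from the edgeR quasi-likelihood test over all 13509 tested genes, called below 0.05. Foxp3, the transcription factor that defines Treg, lay at 989 to 1247 CPM in the 6 Treg libraries and at 11.5 to 19.6 CPM in the 6 Tconv libraries, so that each library matched its sort label. Lists of markers of other cells moved in both directions between the sites. The 7 macrophage and monocyte markers made up 0.0169 to 0.0428% of counts there and at most 0.00219% in spleen libraries, and the 5 fibroblast markers 0.0200 to 0.0502% and at most 2.0e-04%. All 7 and all 5 of these markers had counts in both tumour groups, whereas the fibroblast markers Dcn and Col3a1 were at 0 in both spleen Treg groups. Lung and tumour epithelium markers were at 0.00470 to 0.00527% in tumour Treg, 0.00216 to 0.00324% in tumour Tconv and at most 0.00290% in spleen libraries, and dendritic cell markers at 0.00189 to 0.00258% in tumour Treg, 3.25e-04 to 3.83e-04% in tumour Tconv and at most 5.82e-04% in spleen libraries. Both lists were higher in Treg than in Tconv in each spleen as well. Of the 6 epithelium markers, however, Krt8 and Sftpc were at 0 in every spleen group, and Sftpb also in TB spleen Treg. Epithelium markers were at 0.00283 to 0.00290% in TB spleen Treg and 4.83e-04 to 5.13e-04% in TB spleen Tconv. In normal spleen they were at 0.00264 to 0.00288% and 2.80e-04 to 3.95e-04%. Dendritic cell markers were at 5.25e-04 to 5.82e-04% and 6.98e-05 to 1.89e-04% in TB spleen. In normal spleen they were at 1.49e-04 to 2.23e-04% and 5.49e-05 to 6.52e-05%. B cell markers were higher in Treg too. They were at 0.00223 to 0.00232% in TB spleen Treg and 2.04e-04 to 2.13e-04% in TB spleen Tconv. The shares were 0.00224 to 0.00264% in normal spleen Treg and 1.82e-04 to 1.90e-04% in normal spleen Tconv. Endothelial markers together were lower in tumour Treg (0.00986 to 0.0120%) than in all other libraries (0.0209% or more). One of them, Cldn5, went the other way, at 0 in every spleen group and with counts in both tumour groups. NK cell markers were lower in tumour Treg (2.41e-04 to 3.21e-04%) than in spleen Treg (0.00140 to 0.00195%). In bulk RNA, a change in the number of cells that express a gene and a change in the RNA per cell cannot be told apart.

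The stretches just upstream of the transcript starts of the surface enzymes are printed first, since these genes carried the clearest difference between Treg and Tconv (Entpd1 and Nt5e) or fell in tumour Treg (Dpp4). The sequences are RefSeq's, on the GRCm38.p6 build. Each holds the 250 bases before an annotated start, 5′ to 3′ on the strand of the gene, with CG dinucleotides in capitals. Entpd1 has 2 annotated starts in this table, and counts per gene do not show which was used.
Entpd1, start 40612366, chr19:40612116-40612365, plus strand: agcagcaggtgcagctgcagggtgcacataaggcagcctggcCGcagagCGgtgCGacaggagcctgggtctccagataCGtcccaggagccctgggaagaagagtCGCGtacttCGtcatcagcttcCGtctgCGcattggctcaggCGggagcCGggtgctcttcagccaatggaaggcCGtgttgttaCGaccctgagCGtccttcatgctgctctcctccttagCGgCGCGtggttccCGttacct
Entpd1, start 40659770, chr19:40659520-40659769, plus strand: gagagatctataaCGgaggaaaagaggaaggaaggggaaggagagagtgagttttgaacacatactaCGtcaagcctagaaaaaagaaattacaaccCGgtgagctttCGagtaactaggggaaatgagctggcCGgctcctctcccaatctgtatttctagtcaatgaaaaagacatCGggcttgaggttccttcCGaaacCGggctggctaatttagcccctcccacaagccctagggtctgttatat
Nt5e, start 88327609, chr9:88327359-88327608, plus strand: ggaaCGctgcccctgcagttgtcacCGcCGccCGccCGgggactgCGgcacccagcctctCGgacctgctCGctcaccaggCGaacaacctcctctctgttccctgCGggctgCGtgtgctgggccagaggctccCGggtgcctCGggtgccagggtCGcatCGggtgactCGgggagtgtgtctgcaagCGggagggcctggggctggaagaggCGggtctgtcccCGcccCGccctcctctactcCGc
Dpp4, start 62412231, chr2:62412232-62412481, minus strand: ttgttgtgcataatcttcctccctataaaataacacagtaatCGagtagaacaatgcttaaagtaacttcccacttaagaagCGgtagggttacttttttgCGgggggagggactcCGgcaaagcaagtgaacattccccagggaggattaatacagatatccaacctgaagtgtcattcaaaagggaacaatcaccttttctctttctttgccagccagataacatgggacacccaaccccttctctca

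The 4 windows differed in base composition. Nt5e had a GC content of 72.0% and 21 CG dinucleotides, and the upstream Entpd1 start had 62.4% and 18. The downstream Entpd1 start had 47.2% and 8, and Dpp4 had 43.6% and 4, against medians of 52.4% and 6 over all 32851 promoter windows of the table. Both strands were searched for AP-1 (TGANTCA), CRE (TGACGTCA), forkhead (TGTTTAC) and NFAT core (GGAAAA) letters, which 6.75%, 1.55%, 3.17% and 20.4% of all windows hold. Of these 4 windows, only that of the downstream Entpd1 start held one of them, an NFAT core on the plus strand that begins 233 bases before the start. Among the members whose windows are not printed, some windows of Slc29a1 also held NFAT cores, and those of Ada and Adk held no match. Such a match describes letters and not a bound site.

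Entpd1 (chromosome 19, 40612366 to 40741602, plus strand, GRCm38) was a gene of Treg in every tissue and was highest in the tumour. It stood at 189.8 and 190.3 CPM in tumour Treg, at 69.3 and 78.0 in TB spleen Treg and at 70.7 and 69.8 in normal spleen Treg. In Tconv it stood at 12.2 and 11.9 CPM in the tumour, at 11.5 and 18.2 in the spleen of TB mice and at 6.93 and 7.25 in the spleen of normal mice. Every Treg library lay above every Tconv library, the tumour Treg pair lay above all others, and the 2 spleen Treg groups overlapped. Tumour Tconv lay within the range of TB spleen Tconv, and both normal spleen Tconv libraries lay below all others.

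Between tumour and spleen of TB mice, Entpd1 rose 2.58-fold in Treg (log2 1.37 ± 0.13 SE, adjusted p = 2.12e-06), whereas in Tconv the log2 difference was -0.31 ± 0.16 (adjusted p = 0.134). The difference between these 2 changes was tested itself and came to 1.68 ± 0.20 (adjusted p = 1.42e-04). The value in Tconv turned on TB spleen Tconv, whose libraries lay far apart: it was -0.60 (adjusted p = 0.00113) without library 1 and 0.07 (adjusted p = 0.671) without library 2. Within the tumour, Entpd1 was 15.8-fold higher in Treg than in Tconv (log2 3.98 ± 0.15, adjusted p = 6.14e-10). The shares of macrophage and of fibroblast markers overlapped between these groups. Those of dendritic cell, epithelial and B cell markers were higher in tumour Treg, as they were in Treg of each spleen. B cell markers were at 0.00163 to 0.00169% of counts in tumour Treg and 1.12e-04 to 1.14e-04% in tumour Tconv. NK cell markers were lower in tumour Treg (2.41e-04 to 3.21e-04%) than in tumour Tconv (0.00294 to 0.00349%). The part of these markers in the difference was not tested. The excess of Treg over Tconv was 4.93-fold in the spleen of TB mice (2.30 ± 0.14, adjusted p = 8.95e-08) and 9.90-fold in that of normal mice (3.31 ± 0.16, adjusted p = 8.64e-09).

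Tumour bearing went with a change of Entpd1 in the spleen in one of the cell types. In Tconv it rose 2.10-fold from normal to TB spleen (log2 1.07 ± 0.17, adjusted p = 0.00173), a value that was 1.36 without TB spleen Tconv library 1 and 0.69 without library 2 and was called in both cases. In Treg the difference was 0.07 ± 0.13 (adjusted p = 0.773). The test of the difference between the cell types gave -1.005 ± 0.215 and missed the threshold (adjusted p = 0.0570), though it was passed without TB spleen Tconv library 1 (-1.29, adjusted p = 0.00100), without tumour Tconv library 1 (adjusted p = 0.0227) or 2 (adjusted p = 0.0216) and under 6 other settings. Beside this rise, the 4 Treg markers together went from 0.00735 to 0.00849% of counts in normal spleen Tconv to 0.0168 to 0.0200% in TB spleen Tconv, with Il2ra, Ikzf2 and Ctla4 higher in both TB libraries and Foxp3 lower (15.1 ± 2.43 CPM, SD, n = 2, in TB and 18.9 ± 1.06 in normal spleen). The 3 NK cell markers went from 0.00395 to 0.00462% to 0.00662 to 0.00978%, and the 7 macrophage and monocyte markers overlapped (0.000769 to 0.000909% and 0.000744 to 0.000924%). Their part in the rise was not tested.

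Nt5e (chromosome 9, 88327197 to 88372092, plus strand) was as clearly a gene of Treg, but in Treg its level was not called different between any of the sources compared. It stood at 476 and 466 CPM in tumour Treg, 453 and 453 in TB spleen Treg and 447 and 399 in normal spleen Treg. In Tconv it stood at 154 and 143 CPM in the tumour, 136 and 152 in TB spleen and 71.8 and 64.2 in normal spleen. No Tconv library reached a Treg library, tumour and TB spleen Tconv overlapped, and normal spleen Tconv lay below both. Treg exceeded Tconv 3.17-fold in the tumour (log2 1.66 ± 0.08, adjusted p = 8.33e-09), 3.14-fold in TB spleen (1.65 ± 0.08, adjusted p = 1.73e-08) and 6.22-fold in normal spleen (2.64 ± 0.09, adjusted p = 3.53e-10). B cell, dendritic cell and epithelial markers were higher in Treg as well, and NK cell markers lower. Their part in this excess was not tested.

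The gap between the cell types was narrower in TB mice, and the change lay in Tconv. From normal to TB spleen, Nt5e rose 2.12-fold in Tconv (log2 1.09 ± 0.09, adjusted p = 1.27e-05), against 0.10 ± 0.08 in Treg (adjusted p = 0.458). The difference of these changes was -0.99 ± 0.12 (adjusted p = 0.00126) and was called under every one of 21 alternative settings. Between tumour and spleen of TB mice, Nt5e differed by 0.06 ± 0.08 in Treg (adjusted p = 0.569) and by 0.04 ± 0.08 in Tconv (adjusted p = 0.690). The test of a difference between those 2 changes gave 0.01 ± 0.12 (adjusted p = 0.975).

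Since Entpd1 changed in tumour Treg and Nt5e was not called there, the ratio of the 2 enzymes was taken within each library, with each level divided by its exon length (5.58 kb for Entpd1 and 8.60 kb for Nt5e in GENCODE M21). In tumour Treg the ratio of Nt5e to Entpd1 per kb was 1.63 and 1.59. In spleen Treg it was 4.24 and 3.77 in TB mice and 4.10 and 3.71 in normal mice, so that the tumour pair lay apart from all 4 spleen libraries. The 6 Tconv libraries had ratios of 5.44 to 8.22, above every Treg library. Entpd1 was thus the less abundant message per kb of the pair in all 12 libraries, and nearest to Nt5e in tumour Treg. The exon lengths merge the exons of all annotated transcripts of a gene, and counts per gene do not show which transcripts were present. Here and below, the order of different genes per kb depends on that choice of length.

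**Figure D1:**
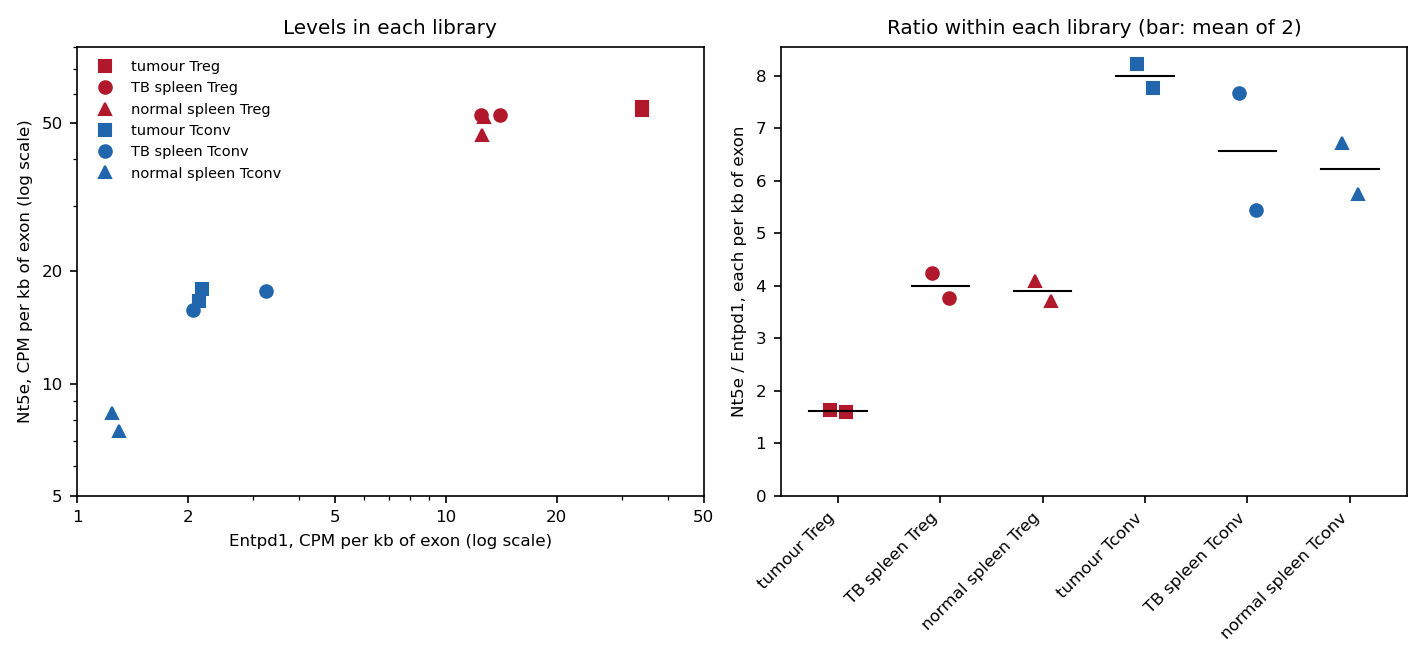
Nt5e and Entpd1 in each of the 12 libraries. The left panel plots CPM per kb of exon of Nt5e (y, log scale) against that of Entpd1 (x, log scale); the right panel plots the ratio of the 2 levels per library, with a bar at the mean of 2 libraries. Tumour Treg lay to the right of spleen Treg and slightly above it (Nt5e at 55.3 and 54.2 CPM per kb, against 46.4 to 52.7 in spleen Treg). The ratio was 1.63 and 1.59 in tumour Treg and 3.71 or more in all other libraries.

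Adora2a (chromosome 10, 75316877 to 75334784, plus strand), the receptor gene, was highest in tumour Treg and lowest in normal spleen Tconv, as was Entpd1. It stood at 154 and 142 CPM in tumour Treg, 86.4 and 79.1 in TB spleen Treg and 75.3 and 71.5 in normal spleen Treg. Tconv libraries held 59.96 and 46.5 CPM in the tumour, 47.6 and 53.4 in TB spleen and 30.6 and 30.5 in normal spleen. Tumour Treg lay above all other libraries, TB spleen Treg lay above normal spleen Treg by less than the spread within them allowed a call, tumour and TB spleen Tconv overlapped, and normal spleen Tconv was lowest.

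In Treg, Adora2a rose 1.79-fold from TB spleen to tumour (log2 0.84 ± 0.10, adjusted p = 2.09e-05), and in Tconv it differed by 0.07 ± 0.11 (adjusted p = 0.612). These 2 changes differed by 0.77 ± 0.15 (adjusted p = 0.00299). Treg exceeded Tconv 2.79-fold in the tumour (1.48 ± 0.11, adjusted p = 1.45e-07), 1.64-fold in TB spleen (0.71 ± 0.11, adjusted p = 1.60e-04) and 2.40-fold in normal spleen (1.26 ± 0.11, adjusted p = 1.59e-06). From normal to TB spleen it rose 1.65-fold in Tconv (0.73 ± 0.11, adjusted p = 0.00127), with 0.17 ± 0.10 in Treg (adjusted p = 0.291). The difference between those 2 changes, -0.55 ± 0.15, missed the threshold (adjusted p = 0.177). It passed the threshold with only the groups compared (adjusted p = 0.00939) and with a replicate block by title number (0.00561) or by description number (0.00534). When either tumour Tconv library was left out, the difference was -0.55.

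**Figure D2:**
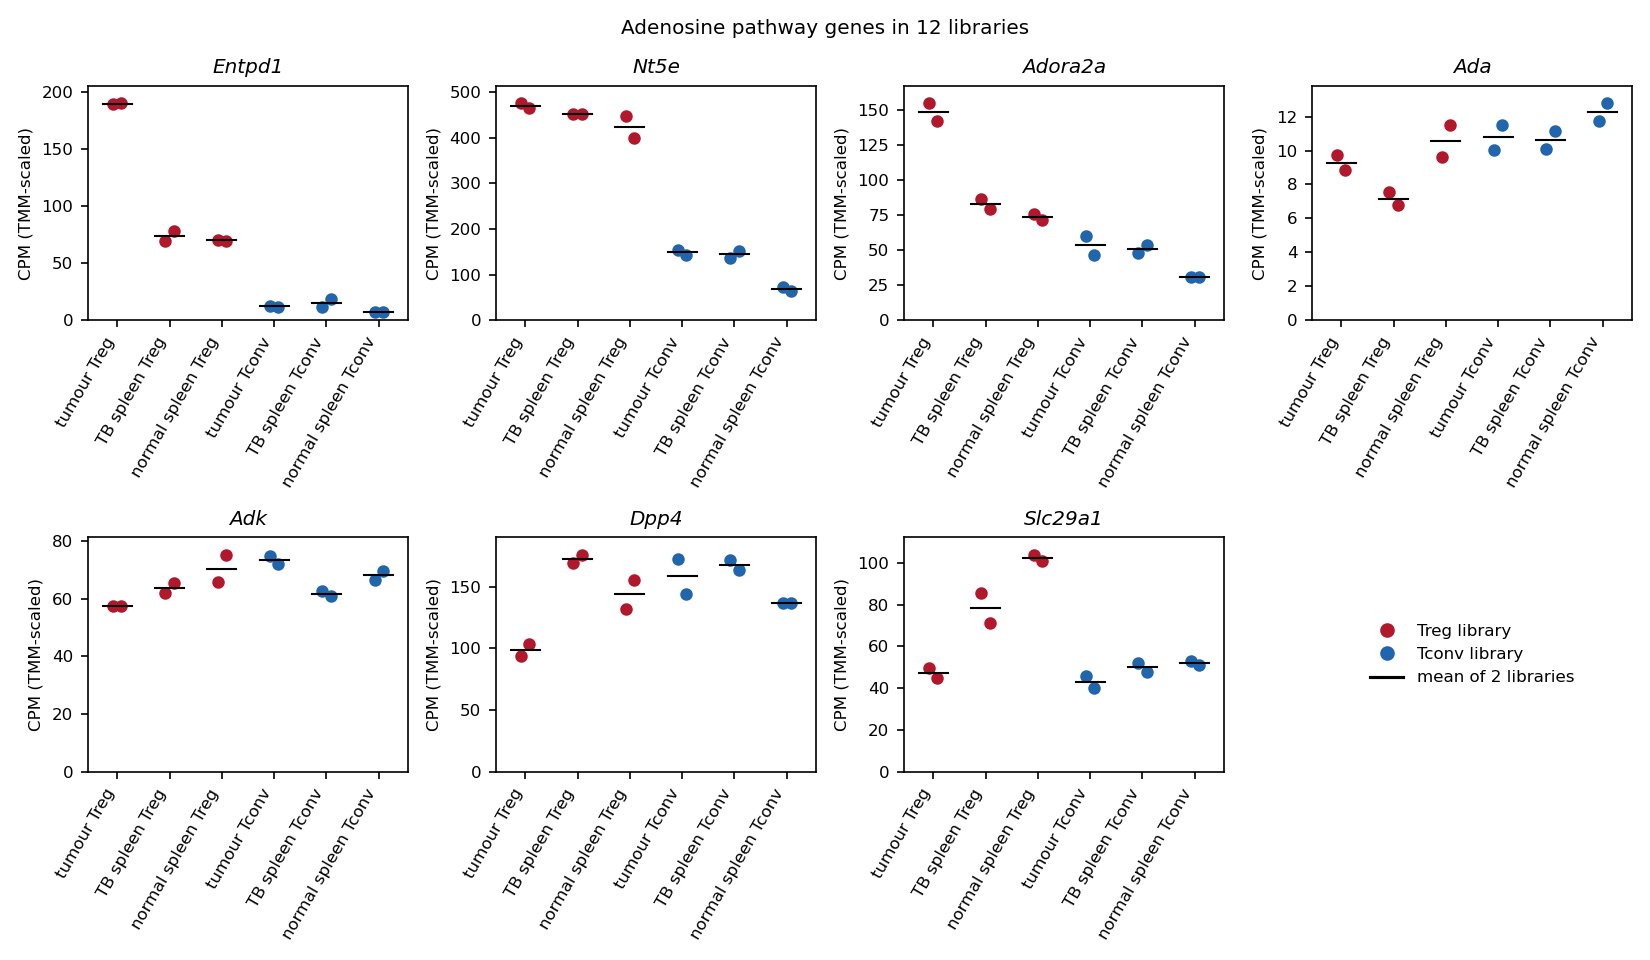
Level of each of the 7 genes in CPM (y axes, from 0) in the 12 libraries, by group (x axes); dots are libraries, Treg red and Tconv blue, and bars are means of 2. Entpd1 and Adora2a are highest in tumour Treg, Nt5e is at 399 CPM or more in all Treg libraries, Dpp4 is lowest in tumour Treg and Slc29a1 is highest in spleen Treg.

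Of the enzymes that remove adenosine, Ada (chromosome 2, 163726584 to 163750239, minus strand) had few counts and showed small differences. It stood at 9.72 and 8.83 CPM in tumour Treg, 7.56 and 6.77 in TB spleen Treg and 9.62 and 11.5 in normal spleen Treg. Tconv libraries held 10.04 and 11.5 CPM in the tumour, 10.1 and 11.1 in TB spleen and 11.7 and 12.8 in normal spleen. TB spleen Treg was the lowest pair and overlapped no other group, and the other 5 groups lay within 8.83 to 12.8 CPM.

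In TB spleen Treg, Ada was called lower than in TB spleen Tconv (log2 -0.57 ± 0.15, adjusted p = 0.00794) and than in normal spleen Treg (-0.56 ± 0.15, adjusted p = 0.0235), and in tumour Treg it was called higher than in TB spleen Treg (0.37 ± 0.15, adjusted p = 0.0439). These calls were fragile. The one in tumour Treg was lost when either library of the 2 groups compared was left out (adjusted p = 0.184 and 0.0527 without tumour Treg library 1 and 2, 0.0689 and 0.211 without TB spleen Treg library 1 and 2), without either TB spleen Tconv (0.0523 and 0.0528) or either normal spleen Tconv library (0.0595 and 0.0738), with DESeq2 (0.0702) and with library-size scaling (0.230). The one against normal spleen Treg was lost without TB spleen Treg library 1 (adjusted p = 0.0722) or 2 (0.168) and without normal spleen Treg library 2 (0.214), and the one against TB spleen Tconv without TB spleen Treg library 2 (0.0716) or TB spleen Tconv library 2 (0.0605).

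Adk (chromosome 14, 21052574 to 21448569, plus strand) varied least of the 7 over the 12 libraries, from 57.3 to 75.2 CPM. It stood at 57.3 and 57.4 CPM in tumour Treg, 61.8 and 65.3 in TB spleen Treg and 65.6 and 75.2 in normal spleen Treg. Tconv libraries held 74.7 and 71.9 CPM in the tumour, 62.7 and 60.8 in TB spleen and 66.5 and 69.7 in normal spleen. The lowest pair was tumour Treg, tumour Tconv lay above the other 2 Tconv groups, and the spleen Treg and Tconv pairs overlapped within each kind of mouse.

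Within the tumour, Adk was lower in Treg than in Tconv (log2 -0.35 ± 0.07, adjusted p = 0.00144). In Tconv it rose from TB spleen to tumour by 0.25 ± 0.07 (adjusted p = 0.0157), and in Treg the difference was -0.15 ± 0.07 (adjusted p = 0.102). The 2 changes differed by -0.40 ± 0.11 (adjusted p = 0.0168). With library-size scaling the call in Tconv was lost (0.14, adjusted p = 0.127) and one in Treg appeared (-0.31, adjusted p = 0.00267); the call in Tconv was also lost when tumour Tconv library 1 (adjusted p = 0.0603) or library 2 of TB spleen Tconv (0.0863) was left out, and that of the difference without TB spleen Treg library 2 (0.0672) or TB spleen Tconv library 2 (0.0600). The ratio of Adk to Ada per kb of exon ran from 1.28 to 2.26 over the 12 libraries, with the highest values in TB spleen Treg (1.92 and 2.26).

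Dpp4 (chromosome 2, 62330073 to 62412231, minus strand) was low in a single group. Tumour Treg held 94.2 and 103.6 CPM, against 169.6 and 176 in TB spleen Treg and 132 and 155 in normal spleen Treg. Tconv libraries held 173 and 144 CPM in the tumour, 171 and 164 in TB spleen and 137 and 137 in normal spleen. Both tumour Treg libraries lay below all 10 others, and in each spleen the Treg and Tconv differed by less than the test could call.

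Dpp4 fell 1.75-fold in Treg from TB spleen to tumour (log2 -0.80 ± 0.10, adjusted p = 1.70e-05) and was 1.60-fold lower in tumour Treg than in tumour Tconv (-0.68 ± 0.10, adjusted p = 6.32e-05). In Tconv the difference between tumour and TB spleen was -0.08 ± 0.09 (adjusted p = 0.488), and the 2 changes differed by -0.72 ± 0.13 (adjusted p = 0.00238). Treg and Tconv differed by 0.04 ± 0.09 in TB spleen (adjusted p = 0.764) and by 0.07 ± 0.09 in normal spleen (adjusted p = 0.605). From normal to TB spleen the log2 difference was 0.27 ± 0.09 in Treg (adjusted p = 0.0779) and 0.29 ± 0.09 in Tconv (adjusted p = 0.0529), neither of them called, although 8 of 20 alternative settings called the first and 12 of 20 the second, among them each fit without a tumour Tconv library (adjusted p = 0.0289 and 0.0280 in Treg, 0.0193 and 0.0183 in Tconv). In Tconv the settings also included each fit without a tumour Treg library (adjusted p = 0.0472 and 0.0471) and without a normal spleen Treg library (0.0489 and 0.0490). Exons of Dpp4 share 232 bases (3.67% of its exon length) with the antisense gene Gm13561, which is not among the rows of the count table.

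Slc29a1 (chromosome 17, 45585200 to 45599606, minus strand), the transporter gene, was highest in spleen Treg. It stood at 103.9 and 100.7 CPM in normal spleen Treg, 85.4 and 71.2 in TB spleen Treg and 49.7 and 44.9 in tumour Treg. Tconv libraries held 53.2 and 51.1 CPM in normal spleen, 52.3 and 47.7 in TB spleen and 45.6 and 39.9 in the tumour. The 3 Treg groups did not overlap one another, whereas tumour Treg overlapped tumour and TB spleen Tconv.

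In Treg, Slc29a1 fell 1.66-fold from TB spleen to tumour (log2 -0.73 ± 0.10, adjusted p = 4.58e-05) and was 1.31-fold lower in TB than in normal spleen (-0.39 ± 0.09, adjusted p = 0.0176). The excess of Treg over Tconv was 1.96-fold in normal spleen (0.97 ± 0.10, adjusted p = 5.42e-06) and 1.57-fold in TB spleen (0.65 ± 0.10, adjusted p = 1.74e-04), and it was not called in the tumour (0.15 ± 0.10, adjusted p = 0.242). In Tconv the difference between tumour and TB spleen was -0.23 ± 0.10 (adjusted p = 0.0795), which was called without tumour Tconv library 1 (-0.31, adjusted p = 0.0393) and with library-size scaling (-0.34, adjusted p = 0.0106). The 2 changes differed by -0.50 ± 0.14 (adjusted p = 0.0210), a call lost without tumour Treg library 2 (adjusted p = 0.0580), library 1 of TB spleen Treg (0.0989) or library 2 of TB spleen Tconv (0.0864). The fall from normal to TB spleen in Treg was lost without TB spleen Treg library 2 (-0.26, adjusted p = 0.174) or normal spleen Treg library 1 (0.0969) or 2 (0.0907). Exons of Slc29a1 share 275 bases (6.86%) with the antisense gene Gm17080, which is not among the rows of the count table either.

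Seen by comparison, the 7 genes split between the cell types. From TB spleen to tumour in Treg, 3 rose (Entpd1, Adora2a and Ada) and 2 fell (Dpp4 and Slc29a1), while 61.4% of all tested genes were called (32.8% higher and 28.7% lower). In Tconv 1 rose (Adk) and none fell, where 49.1% of all genes were called (26.4% higher and 22.8% lower). With so many genes called, 5 of 7 in Treg is near the share of all genes, and 1 of 7 in Tconv is below it. Library-size scaling moved the median log2 change of all genes by -0.16 in Treg and -0.11 in Tconv, and the share of calls that were higher from 53.3 to 39.9% in Treg and from 53.7 to 41.5% in Tconv. It turned the direction of none of the called members, but removed the calls of Ada in Treg and Adk in Tconv and added those of Adk in Treg and of Entpd1 (-0.42, adjusted p = 0.0465) and Slc29a1 in Tconv.

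The test of the difference between the 2 cell types called 5 of the 7, where 24.7% of all genes were called (11.7% higher and 13.1% lower). Entpd1 and Adora2a rose more in Treg than in Tconv, and Adk, Dpp4 and Slc29a1 were on the other side. Nt5e and Ada (0.35 ± 0.21, adjusted p = 0.251) were not called. Without TB spleen Tconv library 2, 3 members were called. Macrophage and fibroblast markers were high in both tumour groups and differed within tumour Tconv (Lyz2 at 153 and 391 CPM, Col3a1 at 95.3 and 236), and their part in these changes was not tested.

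**Figure D3:**
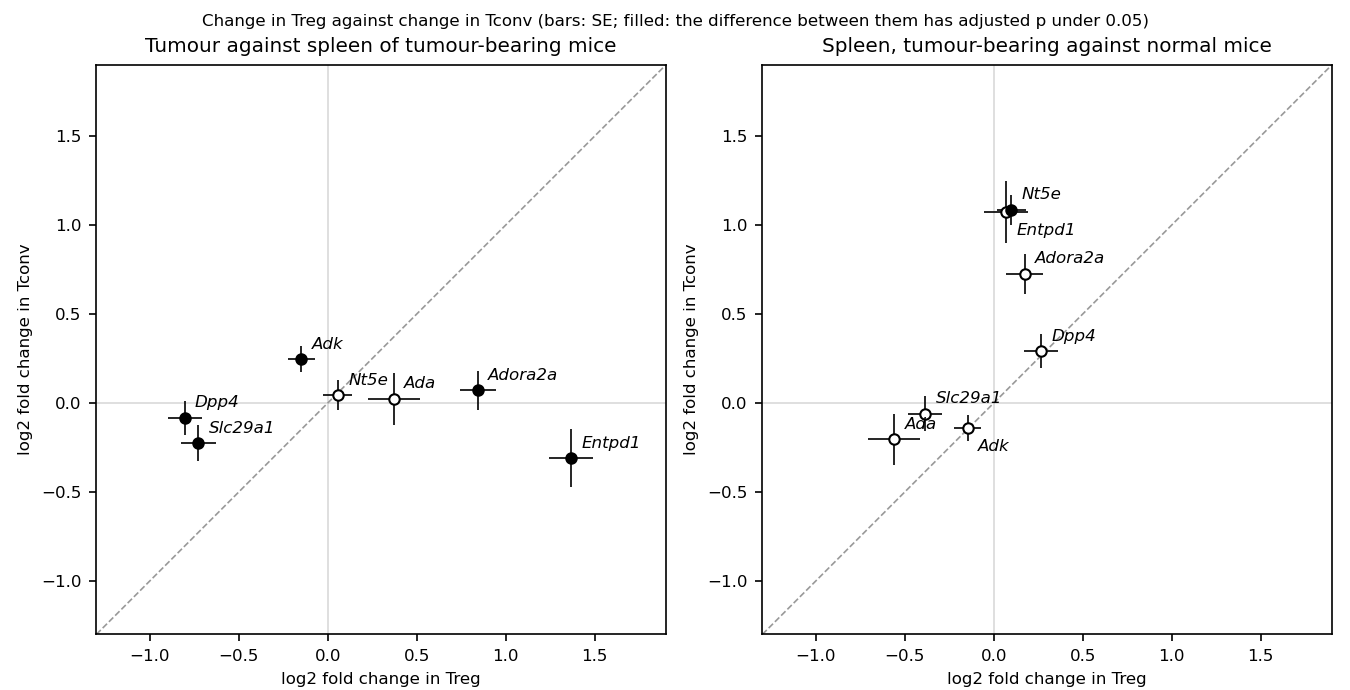
Log2 fold change of each gene in Treg (x) against that in Tconv (y), between tumour and TB spleen (left) and between TB and normal spleen (right); bars are SE, the dashed line marks equal change, and filled dots are genes whose 2 changes differ with adjusted p under 0.05. On the left Entpd1, Adora2a, Dpp4 and Slc29a1 spread along the Treg axis; on the right Entpd1, Nt5e and Adora2a spread along the Tconv axis, and of these only Nt5e is filled.

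Between Treg and Tconv of the same tissue, Entpd1, Nt5e and Adora2a were higher in Treg in all 3 tissues. In the tumour 3 members were higher and 2 lower (Dpp4 and Adk), where 53.9% of all genes were called (27.2% higher and 26.7% lower). In TB spleen 4 were higher and 1 lower, the 4 including Slc29a1 and the lower one being Ada, where 40.3% of all genes were called (21.0% higher and 19.4% lower). In normal spleen 4 were higher and none lower, where 40.6% of all genes were called (21.8% higher and 18.7% lower).

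Between TB and normal spleen, the production and receptor genes moved in Tconv. There 3 members rose (Entpd1, Nt5e and Adora2a) and none fell, against 17.2% of all genes called (9.74% higher and 7.49% lower). In Treg none rose and 2 fell (Ada and Slc29a1), against 15.3% of all genes (6.80% higher and 8.50% lower). Under library-size scaling the share of calls that were higher went from 56.5 to 78.5% in Tconv and from 44.4 to 66.5% in Treg. The test of the difference between the cell types called 1 member, Nt5e (2 without TB spleen Tconv library 1 and 3 without either tumour Tconv library), where 0.851% of all genes were called (0.222% higher and 0.629% lower). The comparisons that use TB spleen Treg or TB spleen Tconv share those libraries, so that their values are not independent of each other. Adk (-0.15 ± 0.07 in Treg, -0.14 ± 0.07 in Tconv, adjusted p = 0.204 and 0.223) and, in Tconv, Ada (-0.20 ± 0.14, adjusted p = 0.366) and Slc29a1 (-0.06 ± 0.10, adjusted p = 0.727) were not called.

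**Figure D4:**
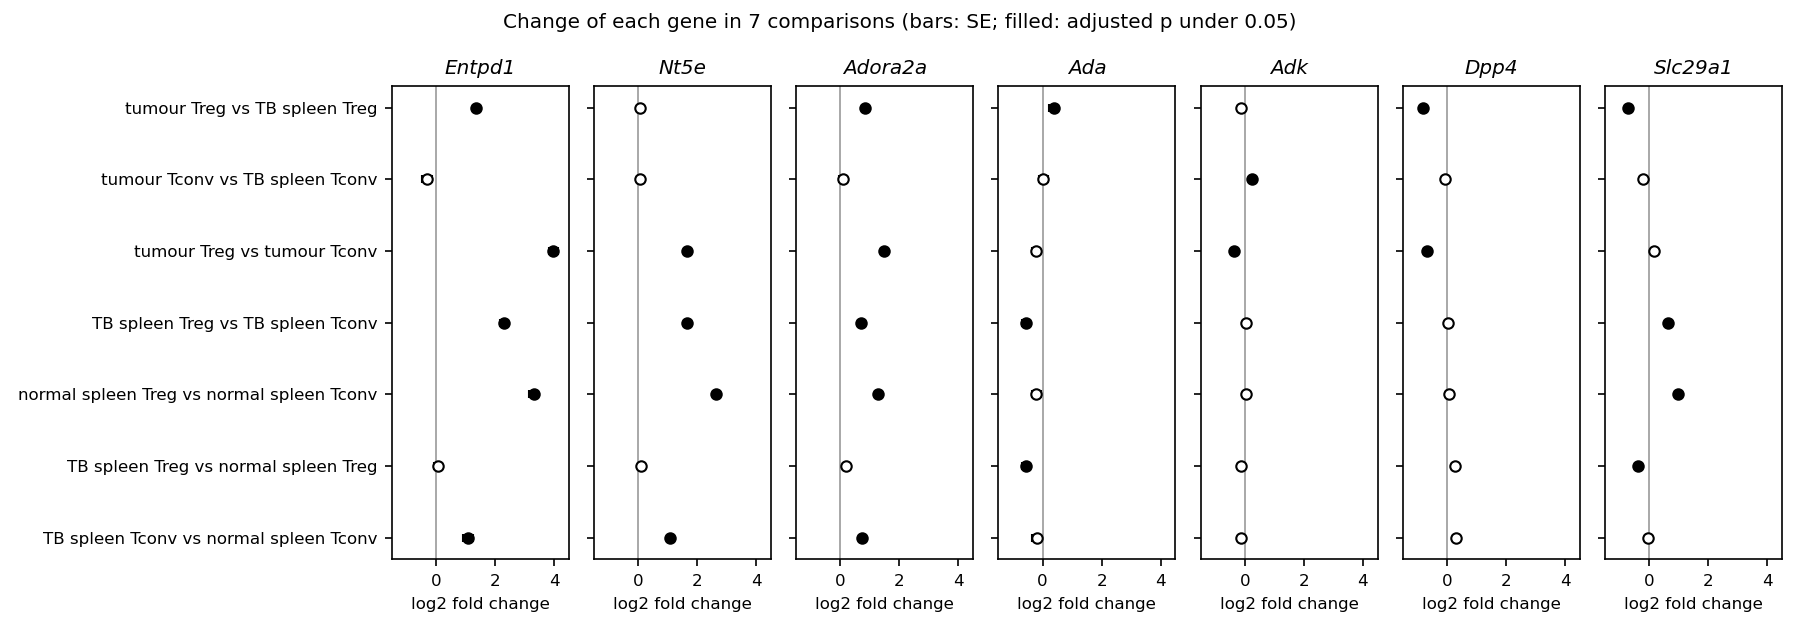
Log2 fold change (x) of each of the 7 genes in the 7 comparisons of 2 groups (y); bars are SE and filled dots have an adjusted p under 0.05. Entpd1, Nt5e and Adora2a are filled and to the right in the 3 comparisons of Treg with Tconv and in Tconv of TB against normal spleen.

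Per kb of exon, the order of the 7 genes differed between groups. In tumour Treg it ran Nt5e (54.7 ± 0.783 CPM per kb, SD, n = 2), Adora2a (48.4 ± 2.83), Entpd1 (34.1 ± 0.0616), Dpp4 (15.7 ± 1.05), Slc29a1 (11.8 ± 0.836), Adk (6.73 ± 0.0101) and Ada (4.63 ± 0.317). In normal spleen Tconv it ran Dpp4 (21.7 ± 0.0131), Slc29a1 (13.01 ± 0.376), Adora2a (9.98 ± 0.0359), Adk (7.99 ± 0.267), Nt5e (7.90 ± 0.622), Ada (6.12 ± 0.374) and Entpd1 (1.27 ± 0.0403). The production and receptor genes thus held the top 3 places in tumour Treg, whereas Entpd1 was last in all 3 Tconv groups and Dpp4 first. Adk and Nt5e in normal spleen Tconv differed by less than the spread between libraries.

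The genes around this core were read from 5 lists, to be set beside the shares of all genes called, which from TB spleen to tumour were 61.4% in Treg and 49.1% in Tconv. Of 18 other ectonucleotidases and genes of the NAD route, 13 were tested, and from TB spleen to tumour 5 rose and 5 fell in Treg (median log2 change 0.22, against 0.02 for all genes) and 1 rose and 6 fell in Tconv (median -0.31, against 0.00). With library-size scaling 2 rose and 5 fell in Treg. Between Treg and Tconv, 6 were higher and 4 lower in the tumour, and 5 higher and 4 lower in each spleen. All genes called came to 53.9% in the tumour, 40.3% in TB spleen and 40.6% in normal spleen. Cd38, whose product consumes NAD, was higher in Treg than in Tconv in the tumour (48.4 ± 7.66 against 5.08 ± 0.00328 CPM, log2 3.25 ± 0.14, adjusted p = 2.54e-09), in TB spleen (1.98 ± 0.13) and in normal spleen (2.82 ± 0.14). Acpp was lower in Treg in the tumour (-1.69 ± 0.17), in TB spleen (-2.00 ± 0.18) and in normal spleen (-1.87 ± 0.18). So was Enpp4 (-1.45 ± 0.10, -1.05 ± 0.10 and -1.11 ± 0.10). Art2b, an ADP-ribosyltransferase of the T cell surface, fell from TB spleen to tumour in Treg (log2 -1.53 ± 0.12) and in Tconv (-1.47 ± 0.13). Enpp1, another enzyme that cleaves extracellular ATP, rose from normal to TB spleen in Treg (0.72 ± 0.12, adjusted p = 0.00238) and in Tconv (0.71 ± 0.13, adjusted p = 0.00329).

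Among 15 genes of the P2 receptor family, which sense extracellular nucleotides, 8 were tested. From TB spleen to tumour 6 rose and 1 fell in Treg (median log2 change 1.37) and likewise 6 and 1 in Tconv (median 2.67, or 2.65 with genes at 0 set to a floor of 3 counts over the group). One group was at 0 for 1 of the 8 genes in Treg and for 2 in Tconv. In TB spleen, 3 of the 8 had at most 3 counts over each group, and in normal spleen 3 had as few. Genes this low in spleen pass the filter only through tumour libraries. The number that rose and the medians are therefore no result about the family. The macrophage and fibroblast markers given above were higher in the same tumour libraries, and their part in these counts was not tested. The one that fell was P2rx7, the ATP-gated channel, from 272 ± 9.97 to 57.3 ± 2.64 CPM (SD, n = 2) in Treg (log2 -2.25 ± 0.11, adjusted p = 1.09e-08) and from 112 ± 17.4 to 36.3 ± 3.97 in Tconv (-1.63 ± 0.11, adjusted p = 2.71e-07). One of those that rose was P2ry10, a family member known as a lysophospholipid receptor. It went from 758 ± 29.1 to 1930 ± 62.0 CPM in Treg (1.35 ± 0.07) and from 222 ± 0.808 to 1754 ± 1.86 in Tconv (2.98 ± 0.08).

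Of 9 other adenosine receptors and nucleoside transporters, 5 were tested, and from TB spleen to tumour 3 rose and 2 fell in Treg (median 0.62) and none rose and 2 fell in Tconv (median 0.09, which became -0.01 with library-size scaling). With that scaling 1 rose and 2 fell in Treg. Adora2b is among the 5, with at most 1 count in each spleen library and 80 and 64 in tumour Treg. It passed the filter only through tumour Treg, so its rise and the median it enters are no result about the list. Slc28a2, a nucleoside transporter that works with the sodium gradient, fell like Slc29a1 in Treg (log2 -0.79 ± 0.07, adjusted p = 1.49e-06) and also in Tconv (-0.37 ± 0.07, adjusted p = 7.93e-04). Unlike Slc29a1, it was lower in Treg than in Tconv in the tumour (-0.69 ± 0.07) and in TB spleen (-0.26 ± 0.07).

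Inside the cell, 25 genes of purine conversion were listed and 23 tested. From TB spleen to tumour 9 rose and 6 fell in Treg (median 0.16, and -0.00 with library-size scaling) and 5 rose and 8 fell in Tconv (median -0.05). In each of these comparisons a group was at 0 for 1 of the 23 genes. In each spleen, 1 had at most 3 counts over each group. Such a gene can pass the filter only through other libraries, so the counts and medians that include it are no result about the list. Pnp, the phosphorylase that takes inosine on after Ada, rose from 33.5 ± 1.35 to 57.95 ± 0.126 CPM in Treg (log2 0.79 ± 0.09, adjusted p = 8.86e-06). Ampd3, which deaminates AMP, fell in Treg (-1.60 ± 0.09, adjusted p = 3.66e-08) and in Tconv (-0.64 ± 0.08, adjusted p = 5.55e-05). Xdh, the oxidase that makes uric acid in purine breakdown, was higher in Treg than in Tconv in the tumour (1.06 ± 0.12), TB spleen (1.19 ± 0.13) and normal spleen (1.21 ± 0.13).

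Downstream of the receptor, all 21 genes listed for the cAMP arm were tested. From TB spleen to tumour 8 rose and 7 fell in Treg (median -0.01) and 8 rose and 5 fell in Tconv (median 0.10, and -0.01 with library-size scaling). Crem, a transcription factor gene that cAMP is known to induce, rose from 99.7 ± 1.88 to 595 ± 5.34 CPM (SD, n = 2) in Treg (log2 2.58 ± 0.08) and from 22.9 ± 1.05 to 377 ± 24.7 in Tconv (4.04 ± 0.09), and the changes differed (-1.46 ± 0.11, adjusted p = 5.32e-06). Pde3b, a phosphodiesterase that degrades cAMP, was far lower in Treg than in Tconv in the tumour (34.3 ± 1.83 against 455.5 ± 40.3 CPM, log2 -3.73 ± 0.12), in TB spleen (-5.60 ± 0.13) and in normal spleen (-5.14 ± 0.13). In Treg it rose from TB spleen to tumour (1.53 ± 0.12, adjusted p = 7.90e-07).

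Between TB and normal spleen, 17.2% of all genes were called in Tconv and 15.3% in Treg. In Tconv the cAMP list had 7 higher and 2 lower, the P2 list 3 higher, the ectonucleotidase list 2 higher and 1 lower, the purine list 1 higher and 2 lower and the transporter list 1 lower. In Treg the counts were 4 higher and 3 lower, 2 higher, 1 and 1, 2 higher and 5 lower, and 1 lower, in that order. Crem rose there in both cell types, by 2.06 ± 0.08 in Treg and by 0.82 ± 0.09 in Tconv, a difference of 1.24 ± 0.13 (adjusted p = 3.12e-04).

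The genes whose log2 CPM followed each member most closely over the 12 libraries are given as a description, since the libraries fall into 6 groups and share their cell types and tissues. For Entpd1 they were Ehbp1l1 (Pearson r = 0.996), Trp53i11 (0.996) and Eml2 (0.995), and for Nt5e they were Penk (0.995), Map6 (0.993) and Cyfip1 (0.991). Adora2a was followed by Serpina3g (0.989), Stx11 (0.988) and Slc39a4 (0.986), and Slc29a1 by Ephx1 (0.981), Tmtc4 (0.974) and Sp6 (0.969). Dpp4 was followed by Scaper (0.969), Krba1 (0.964) and Msh3 (0.947), and Ada by Ndufb5 (0.935), Gga2 (0.933) and Atp5b (0.921). The weakest likeness was that of Adk, to Mad1l1 (0.857), Rptor (0.852) and Chd3 (0.845). Between members, Entpd1 was near Nt5e (0.951) and Adora2a (0.950), and Nt5e near Adora2a (0.905), while Ada ran against all 3 (-0.62, -0.71 and -0.61 with Entpd1, Nt5e and Adora2a).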

How the data were processed

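Per the labels' protocols, RNA of sorted CD4+ cells was sequenced from 12 libraries. The deposited values are raw counts per gene, which the authors made with STAR and featureCounts on mm10, per the submitters' processing notes. Their versions, the annotation and the strand setting are not given in the sources used here. Reads of antisense partners therefore cannot be told apart. The counts were taken as deposited into edgeR 4.0.16 under R 4.3.3. A filter by group (filterByExpr) left 13509 of 24062 genes; 5873 had no count anywhere. TMM factors ran from 0.942 to 1.07. All libraries entered 1 quasi-likelihood fit with 6 group means and 6 residual degrees of freedom, at a common biological coefficient of variation of 0.0863. It gave two-sided F tests for 7 comparisons of 2 groups and 2 interactions, with p-values adjusted by Benjamini and Hochberg's method across the tested genes. The SE was computed as the size of the log2 fold change over the square root of F. The procedure was tested on simulated data with a shared spread for all genes and far fewer changed genes than were called between tumour and spleen. That test therefore does not cover changes as broad as those. Exon lengths and positions are from GENCODE M21 (GRCm38, the assembly of mm10), and promoter windows from RefSeq, where 6 of the 7 members had an entry.

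The members and lists were chosen with earlier results of these data known. All members are named in every comparison. Of each list, genes were eligible if they were among the 4 called genes with the largest change at a mean log2 CPM of at least 3, and not all eligible genes are printed. For each member the 3 annotated genes of highest correlation are named (no gene models, pseudogenes or receptor segments). Marker lists for 11 cell types were read as shares of counts. As alternatives, the results were recomputed with DESeq2 1.42.0, with its size factors in edgeR, with limma-voom (limma 3.58.1), with library sizes alone, without a filter or with a stricter one, with the compared groups alone, with blocks by the number in the title or in the description, and without each library in turn. Matplotlib 3.10.9 drew the figures.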

Additional observations from a re-analysis of the deposited data

Results flagged for a closer look

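The changes of 6 members differed between Treg and Tconv by a test of the difference itself (edgeR, adjusted p under 0.05). For tumour against TB spleen, the change in Treg minus that in Tconv was 1.68 on the log2 scale for Entpd1, 0.77 for Adora2a, -0.40 for Adk, -0.72 for Dpp4 and -0.50 for Slc29a1. For TB against normal spleen it was -0.99 for Nt5e.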

How the results depend on the processing

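Of 1302 values of the 7 genes recomputed under alternatives, 1231 kept their side of the threshold, 41 newly passed it, 30 no longer did and 0 called values changed sign. Among values that were not called, the sign could change. For Nt5e in Treg between tumour and TB spleen, the log2 difference ran from -0.10 to 0.10. The number of members called moved as follows. For tumour against TB spleen in Tconv it was 1, 2 with library-size scaling and 0 to 2 without single libraries (2 and 0 without TB spleen Tconv library 1 and 2). For TB against normal spleen in Treg it was 2, and 0 to 3 without single libraries (0 without library 2 of either group). For the difference of the tumour changes it was 5, and 3 to 5 without single libraries. For the difference of the TB spleen changes it was 1, with 2 under DESeq2, without a filter and with a stricter one, 3 with only the groups compared, and 1 to 3 without single libraries.

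The replicate blocks were fitted on the groups compared alone, so that they change the samples as well as the block. With a replicate block by title number, 4 members were called for TB against normal spleen in Treg (3 with those groups and no block) and 3 for the difference of the TB spleen changes, and with a block by description number 4 for the latter. Deviations of same-numbered libraries correlated at 0.264 between TB spleen Treg and Tconv and at 0.182 between normal spleen Treg and Tconv, and at -0.0636 to 0.0589 in the other comparisons (8664 genes). With 2 numbers a comparison and no label that ties them, pairing is not shown. The description block could not be fitted for 3 comparisons of normal spleen, for lack of residual degrees of freedom.

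Over all genes, calls for TB against normal spleen went from 2066 in Treg to 3670 (only the groups compared) and 3991 (title block), and, without single libraries, to 512 to 2711, each of the 4 libraries compared lowering it (856 and 683 without TB, 1010 and 512 without normal spleen library 1 and 2). In Tconv they went from 2328 to 3179 (only the groups compared), 4192 (title block) and 751 to 2720, again lowered by each library compared (1045 and 1450, 985 and 751). For the difference of the TB spleen changes, 115 became 213 (DESeq2), 184 (no filter), 320 (only the groups compared), 431 and 507 (title and description block). Without single libraries it ran from 42 (normal spleen Tconv library 2) to 221 (tumour Tconv library 2). For the difference of the tumour changes 3337 became 2161 (TB spleen Treg library 1) to 3679. The cause of these moves was not tested. In the comparisons of 2 groups Ada, at 6.77 to 12.8 CPM, had an SE of 0.14 to 0.15, against 0.07 for Adk at 57.3 to 75.2 CPM.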

Other observations

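Adora2b, the gene of the other receptor that raises cAMP, is reported because of its values and falls outside the rule for named genes. It had 80 and 64 counts in the tumour Treg libraries (3.47 and 2.80 CPM), 0 and 7 counts in tumour Tconv, and at most 1 count in each of the 8 spleen libraries. The shares of macrophage and of fibroblast markers overlapped between the 2 tumour groups, whereas dendritic cell markers were at 0.00189 to 0.00258% of counts in tumour Treg and 3.25e-04 to 3.83e-04% in tumour Tconv, and epithelial markers at 0.00470 to 0.00527% and 0.00216 to 0.00324%. Dendritic cell and epithelial markers were also higher in Treg than in Tconv of each spleen. B cell markers were at 0.00163 to 0.00169% in tumour Treg and 1.12e-04 to 1.14e-04% in tumour Tconv, and NK cell markers at 2.41e-04 to 3.21e-04% and 0.00294 to 0.00349%. The part of these markers in the counts of Adora2b was not tested.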
